A study of Macaca mulatta with 52 samples.

Results

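The comparison set expanded blastocysts against morulas of the rhesus monkey (Macaca mulatta) in libraries made from single embryos with the SoLo kit, a low-input RNA sequencing kit in which ribosomal sequences are depleted after a first amplification. It held 9 libraries of the 49 that could be matched to a labelled embryo, namely 6 expanded blastocysts and 3 morulas. Members were chosen by stage and kit in the sample titles. Of the 6 blastocysts, 111715_01, 111715_02, 111715_04 and 112415_03 matched a title of their own, and 2 libraries of code 111215 matched only their group and are called 111215_a and 111215_b. The 3 morulas were 021016_02, 021016_03 and 022916_01. All embryos came from oocytes matured in vivo in females stimulated with follicle-stimulating hormone and chorionic gonadotropin, were fertilised in vitro and were cultured in a defined medium with or without relaxin. The labels do not say which embryos received relaxin, and give no genotype, parent or sex. The series compares stages of development, and 4 8-cell SoLo libraries shared the fit and served as the earlier stage. SPIA libraries, made with a kit that amplifies cDNA linearly, were available for the same 9 embryos and for another 8 expanded blastocysts and 7 morulas without a SoLo title.

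A morula is a compact ball of cells. In the blastocyst the outer cells have become trophectoderm, a polarised epithelium that seals itself with tight junctions, pumps sodium and water inward to open the cavity, and later forms the placenta. The inner cells separate into epiblast, the source of the fetus, and primitive endoderm, a secretory epithelium that lines the yolk sac. Over the same time transcripts inherited from the oocyte and those of the burst of embryonic genome activation disappear. These are whole embryos, so fewer cells of a type and less RNA per cell cannot be told apart in any value below.

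Total counts per library were 5696436 to 9245316 in expanded blastocysts and 6744300 to 10571608 in morulas. After thinning to 5696436 counts, the 6 expanded blastocysts showed 15204 ± 355 genes and the 3 morulas 13786 ± 1624 (SD), a difference with an exact permutation p of 0.143, or 0.429 adjusted over 3 measures. The 13 identifiers without a gene name among the 20 with most counts took 29.7 ± 6.14% of counts in expanded blastocysts and 26.9 ± 7.25% in morulas (exact permutation p = 0.571). With 6 libraries against 3 there are 84 splits, and the smallest two-sided p is 0.0238. The blastocysts carried the title codes 111215, 111715 and 112415 and the morulas 021016 and 022916, so stage and title code cannot be told apart. Nothing says which embryos share parents or a collection day, and the p-values measure only the spread between these embryos.

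The library labelled morula 022916_01 stood apart from the other 2 morulas. It was placed with genes called in the SPIA embryos that have no SoLo library, where edgeR called 113 of 9163 genes tested higher (1.23%) and 218 lower (2.38%) in expanded blastocysts. Over the 113 higher genes the mean log2(CPM + 1) level, CPM being the usual unit of counts scaled to library depth, here after TMM normalization, was 6.29 to 6.80 in the SoLo blastocysts, against 2.73 in morula 021016_02, 2.10 in 021016_03 and 6.23 in 022916_01. Over the 218 lower genes it was 5.60 in blastocyst 112415_03 and 4.81 to 4.98 in the other blastocysts, against 6.37, 6.49 and 5.47 in the same order of morulas. Over the higher genes 022916_01 lay just below the blastocysts. Over the lower genes it lay below 112415_03 and above the other blastocysts. The other 2 morulas lay apart from the blastocysts on both measures. In the SPIA libraries of the same embryos 022916_01 lay between the groups and nearer the blastocysts. Over the higher genes the blastocysts had 5.74 to 6.14 there, against 2.57, 2.13 and 5.05 in the morulas. Over the lower genes they had 4.25 to 4.81, against 5.54, 5.87 and 4.93. Genes detected at the common depth numbered 14857 to 15826 in the blastocysts, against 13316, 12449 and, in 022916_01, 15593 in the morulas. Results are therefore given with this library and without it. It was singled out for its resemblance to blastocysts in earlier results of these data, so leaving it out raises the number of calls by construction.

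**Figure D1:**
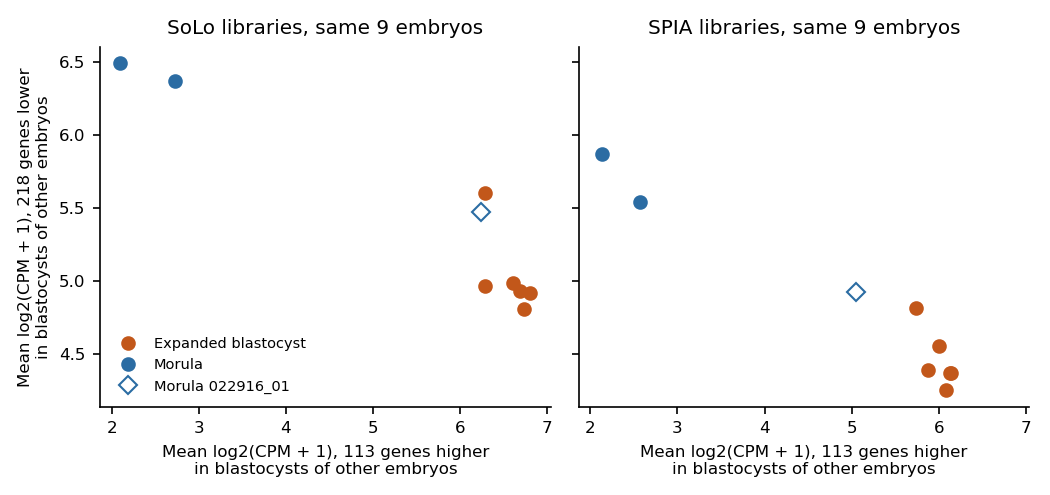
Each point is 1 embryo, by its mean log2(CPM + 1) level over the 113 genes called higher (horizontal axis) and the 218 genes called lower (vertical axis) in expanded blastocysts of other embryos, in SoLo (left) and SPIA (right) libraries of the same 9 embryos. Morula 022916_01 (open diamond) lies at 6.23 on the horizontal axis in SoLo, near the blastocysts at 6.29 to 6.80, while the other 2 morulas lie at 2.73 and 2.10.

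With all 9 libraries, edgeR called 16 of 14196 genes tested higher in expanded blastocysts (0.113%) and 146 lower (1.03%) at an adjusted p under 0.05. Without morula 022916_01 it called 771 of 15120 higher (5.1%) and 706 lower (4.67%). The median log2 fold change of all genes, expanded blastocyst over morula, was 0.05 with all libraries and 0.18 without that morula. Leaving out a different library lowered the counts in most cases. Without morula 021016_02 there were 2 higher and 12 lower, without 021016_03 1 and 4, without blastocyst 111215_a 1 and 6, without 111715_02 1 and 5, without 111715_01 3 and 37, and without 111715_04 6 and 56. Without 111215_b the counts were 13 and 105, and without 112415_03 they were 21 and 250. DESeq2 called 289 higher and 390 lower with all libraries.

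**Figure D2:**
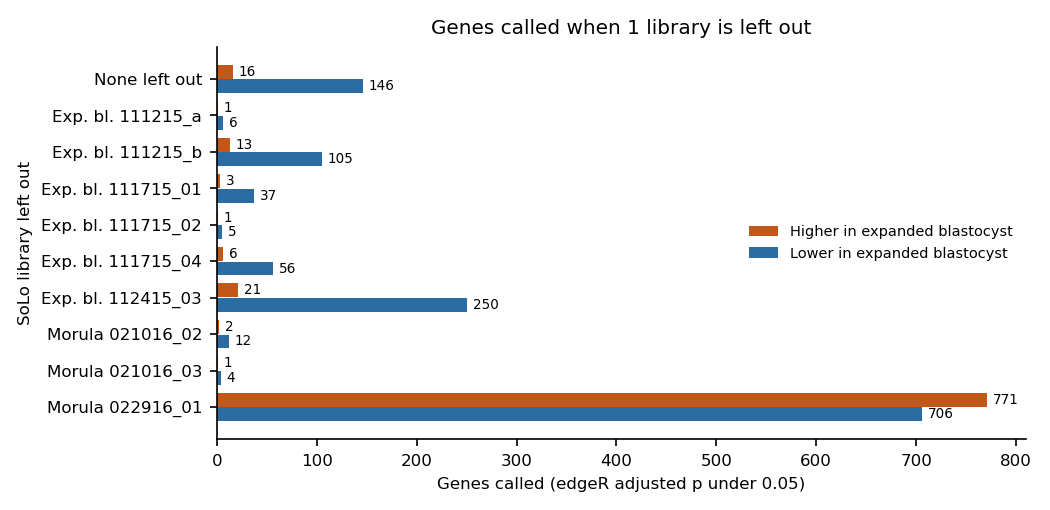
Number of genes called higher (orange) and lower (blue) in expanded blastocysts (Exp. bl.) with all 9 libraries and with each library left out in turn (bars, edgeR adjusted p under 0.05). Leaving out morula 022916_01 gave 771 and 706 calls, against 16 and 146 with none left out.

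The marker genes chosen for this comparison were PSAP, HSPA5, MAEL and TEX15, and each was called with all 9 libraries. PSAP encodes the precursor of the saposins, which activate lysosomal enzymes that break down sphingolipids. Its level in expanded blastocysts was 1023 CPM at the lowest, 1583 at the median and 1874 at the highest, against 195, 165 and 440 CPM in morulas 021016_02, 021016_03 and 022916_01. Every blastocyst lay above every morula, and 8-cell embryos lay at 134 to 221 CPM. The log2 fold change was 2.50 ± 0.32 (SE, edgeR adjusted p = 0.00211), and 3.07 ± 0.30 (adjusted p = 1.21e-05) without morula 022916_01. The SPIA libraries of other embryos also called PSAP higher, at 153 to 1018 CPM in 8 blastocysts and 29.2 to 249 CPM in 7 morulas (log2 fold change 1.80 ± 0.46, adjusted p = 0.0311).

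HSPA5, the main chaperone of the endoplasmic reticulum, was lower in expanded blastocysts. It lay at 587 to 863 CPM with a median of 730, against 2519, 2395 and 1136 CPM in the 3 morulas, and the groups did not overlap. In 8-cell embryos it lay at 759 to 956 CPM, so the morulas were the high stage. The log2 fold change was -1.50 ± 0.21 (edgeR adjusted p = 0.00392) with all libraries and -1.78 ± 0.16 (adjusted p = 6.09e-06) without 022916_01. The call was lost without morula 021016_03 (adjusted p = 0.0573). Other SPIA embryos did not call it, with 350 to 745 CPM in blastocysts and 124 to 2118 CPM in morulas (log2 fold change -0.62 ± 0.45, adjusted p = 0.479). SPIA libraries of the same embryos called HSPA5 lower.

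MAEL, a factor of the piRNA pathway that silences transposons in the germline, was lower in expanded blastocysts at 2.17 to 6.31 CPM, with a median of 2.69. The morulas had 47.7, 264 and 15.1 CPM, and 8-cell embryos 111 to 168 CPM. Morula 021016_03 was above every 8-cell embryo, and morula 022916_01 was nearest the blastocysts. The log2 fold change was -5.08 ± 0.64 (edgeR adjusted p = 0.00415). TEX15, a testis gene needed for meiotic recombination and for transposon silencing in mouse, lay at 0.345 to 1.39 CPM in blastocysts, against 3.91, 13.9 and 8.79 CPM in morulas and 132 to 236 CPM at the 8-cell stage. Its larger step was thus between the 8-cell stage and the morula, and the blastocyst-to-morula log2 fold change was -3.49 ± 0.42 (adjusted p = 0.00166). In other SPIA embryos MAEL was called lower (-3.16 ± 0.88, adjusted p = 0.0434) and TEX15 was not called (-3.96 ± 1.25, adjusted p = 0.0757). In SPIA libraries of the same embryos TEX15 had 0 to 0.527 CPM in 5 blastocysts and 7.84 CPM in 112415_03, against 4.95, 2.26 and 0.215 CPM in morulas. The groups overlapped there and TEX15 was not called (-0.80 ± 1.65, edgeR adjusted p = 0.838).

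**Figure D3:**
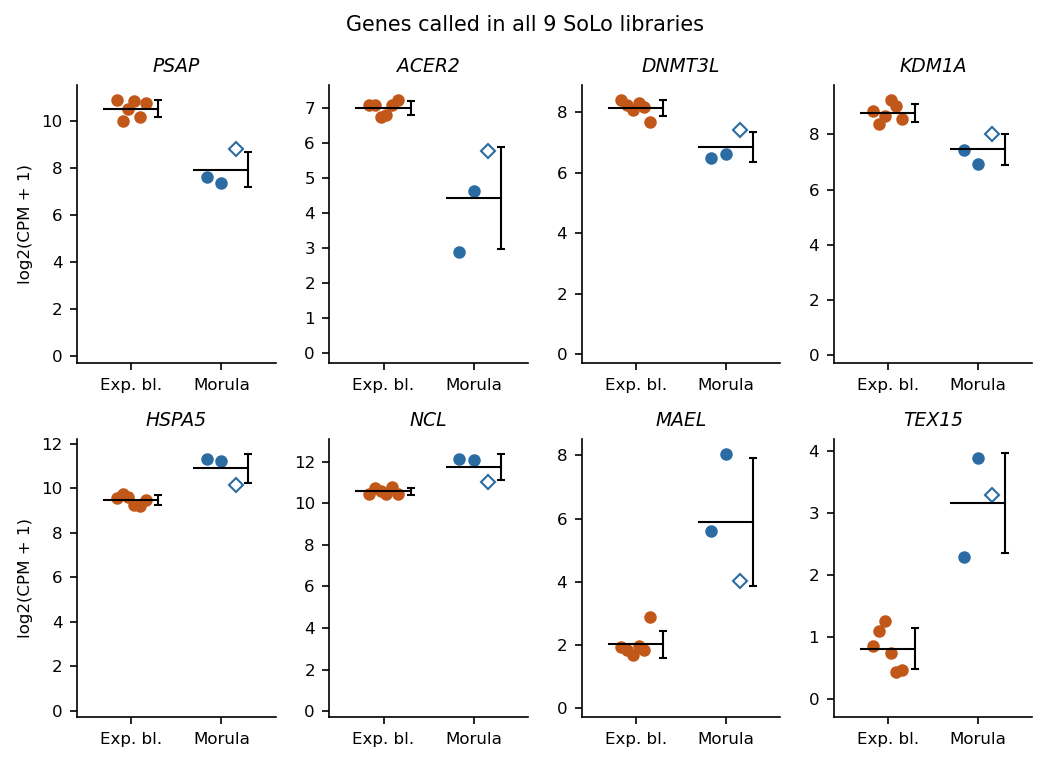
Level of 8 genes called with all 9 libraries, as log2(CPM + 1), in 6 expanded blastocysts (Exp. bl., left) and 3 morulas (right). Points are embryos, the open diamond is morula 022916_01, and lines and bars are the mean and SD. PSAP, ACER2, DNMT3L and KDM1A lie higher in blastocysts, and HSPA5, NCL, MAEL and TEX15 lie lower, with no overlap in any of the 8.

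Of 32 genes named here that were called with all libraries, 4 kept the call whichever single library was left out. These were PSAP, MAEL, TEX15 and TUBA3E, an alpha-tubulin gene with close copies whose reads may be shared. TUBA3E lay at 4.49 to 8.88 CPM in expanded blastocysts, against 159, 197 and 16.5 CPM in morulas (log2 fold change -4.32 ± 0.50, edgeR adjusted p = 0.00183). The other 28 lost the call in at least 1 of the 9 fits. Of the 4, PSAP kept the call in every alternative run. Under limma voom with the title code as a random effect MAEL (adjusted p = 0.0710), TEX15 (0.0904) and TUBA3E (0.0573) lost it.

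The remaining genes of largest change in the fit of all libraries that reached 1 CPM in every library of the higher stage were a mixed group. OBSL1, a cytoskeletal adaptor, had 1.79 to 13.7 CPM in blastocysts and no count in any of the 3 morulas. Against a floor of 3 counts over the morulas it was at least 66.4-fold higher (edgeR adjusted p = 0.0303). PADI4, which converts arginine to citrulline in histones, had 1.90 to 13.0 CPM in blastocysts, against 0, 0 and 0.131 CPM in morulas, where a single count was found, and the ratio was 132 with a 95% counting interval of 23.6 to 5204. The carboxypeptidase M gene, whose symbol CPM is also that of the unit, had a log2 fold change of 5.32 ± 1.03 (adjusted p = 0.0222). Both OBSL1 and the carboxypeptidase gene also had counts at the 8-cell stage, at 1.92 to 69.9 and 15.0 to 105 CPM, so the morulas were the low stage.

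MTUS2, a microtubule-associated gene, followed the same course, at 23.6 to 103 CPM in blastocysts, against 10.1, 8.67 and 19.2 CPM in morulas and 59.3 to 105 CPM in 8-cell embryos (log2 fold change 2.52 ± 0.46, edgeR adjusted p = 0.0208). ACER2, a Golgi ceramidase, had 106 to 151 CPM in blastocysts, against 6.42, 23.8 and 53.9 CPM in morulas (2.21 ± 0.51, adjusted p = 0.046). RALGDS, an exchange factor for Ral GTPases, had 87.2 to 258 CPM in blastocysts, against 15.7, 25.0 and 63.8 CPM in morulas (2.16 ± 0.43, adjusted p = 0.0234). SUCLG2, a subunit of a citric acid cycle enzyme, had 61.7 to 97.2 CPM in blastocysts, against 14.8, 8.38 and 35.0 CPM in morulas (2.09 ± 0.42, adjusted p = 0.0247). Morula 022916_01 was the highest of the morulas for each of these 4 genes and still below every blastocyst.

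Among the genes lower in blastocysts, PABPN1L, an oocyte form of a poly(A)-binding protein, had 0 to 0.336 CPM in blastocysts, against 5.03, 5.49 and 4.20 CPM in morulas (log2 fold change -4.71 ± 1.00, edgeR adjusted p = 0.0316). STEAP1, a membrane protein of the metalloreductase family, had 0 to 4.01 CPM in blastocysts, against 23.0, 55.9 and 5.25 CPM in morulas (adjusted p = 0.0368). DRP2, a relative of dystrophin, had 0.20 to 2.02 CPM in blastocysts, against 13.9, 25.3 and 1.44 CPM in morulas (adjusted p = 0.0226), so morula 022916_01 lay within the blastocyst range. OSBPL6, an oxysterol-binding protein, had 2.40 to 16.7 CPM in blastocysts, against 119, 163 and 17.7 CPM in morulas (adjusted p = 0.0346). GASK1A, a Golgi-associated kinase homologue, had 0.20 to 6.73 CPM in blastocysts, against 15.2, 42.2 and 6.43 CPM in morulas (adjusted p = 0.0368).

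Trophectoderm transcription factors were low in morulas 021016_02 and 021016_03, while 022916_01 lay just below the blastocyst range for GATA2 and within it for GATA3 and DLX3. GATA2, which drives trophoblast gene expression, had 269 to 497 CPM in blastocysts with a median of 343, against 0.372, 0.578 and 222 CPM in the morulas. It was not called with all libraries (log2 fold change 2.32 ± 1.59, edgeR adjusted p = 0.516), and was higher in blastocysts without 022916_01 (9.61 ± 1.53, adjusted p = 0.00364). The SPIA libraries of the same morulas gave 0.242, 0.905 and 115 CPM. GATA3, a partner factor, had 45.0 to 104 CPM in blastocysts, against 7.08, 2.46 and 57.2 CPM in the morulas, and without 022916_01 the log2 fold change was 3.92 ± 0.55 (adjusted p = 0.000291). In DLX3, a homeobox gene of the placenta, blastocysts had 18.7 to 53.8 CPM, against 0, 0 and 23.8 CPM in morulas. Without 022916_01 it was at least 241-fold higher (adjusted p = 0.0498), a call lost when any further library was left out. Other SPIA embryos called none of the 3. There GATA2 had 9.08 to 355 CPM in blastocysts and 0 to 267 CPM in morulas (2.10 ± 1.55, edgeR adjusted p = 0.5), and GATA3 and DLX3 had log2 fold changes of 0.55 ± 1.26 and 2.37 ± 1.24 (adjusted p = 0.856 and 0.296). CDX2, SOX2 and SOX17 had no named identifier and were not analysed here.

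The wider trophectoderm list showed the same split. Of 32 identifiers on it, 27 to 29 reached 1 CPM in each blastocyst, against 16, 14 and 29 in the 3 morulas. Their summed level was 6013 to 11934 CPM in blastocysts, against 934, 965 and 5694 CPM in the morulas. LRP2 alone, which also stands on the primitive endoderm list, made up a large part of these sums in the blastocysts and in 022916_01. With all libraries 30 were tested, none was called higher and 1 was called lower, with a median log2 fold change of 1.70. Without 022916_01, 17 of 31 were higher and 1 lower, with a median of 4.70 also when the 7 genes at 0 in both morulas were set at their bound. ABCG2, an efflux transporter of the placenta, had 6.59 to 76.5 CPM in blastocysts, against 0.0931, 0 and 37.9 CPM in morulas, and was called higher without 022916_01 (edgeR adjusted p = 0.00154) and in other SPIA embryos (5.67 ± 1.32, adjusted p = 0.0184). SLC7A2, a transporter of arginine and lysine, went the other way, with 43.9 to 114 CPM in blastocysts, against 323, 520 and 51.5 CPM in morulas (-2.16 ± 0.48, adjusted p = 0.046). It was the list's 1 lower gene in both fits and was lower in other SPIA embryos too (-2.74 ± 0.61, adjusted p = 0.0141). LRP2 and CYP11A1, called below, stand on this list as well.

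**Figure D4:**
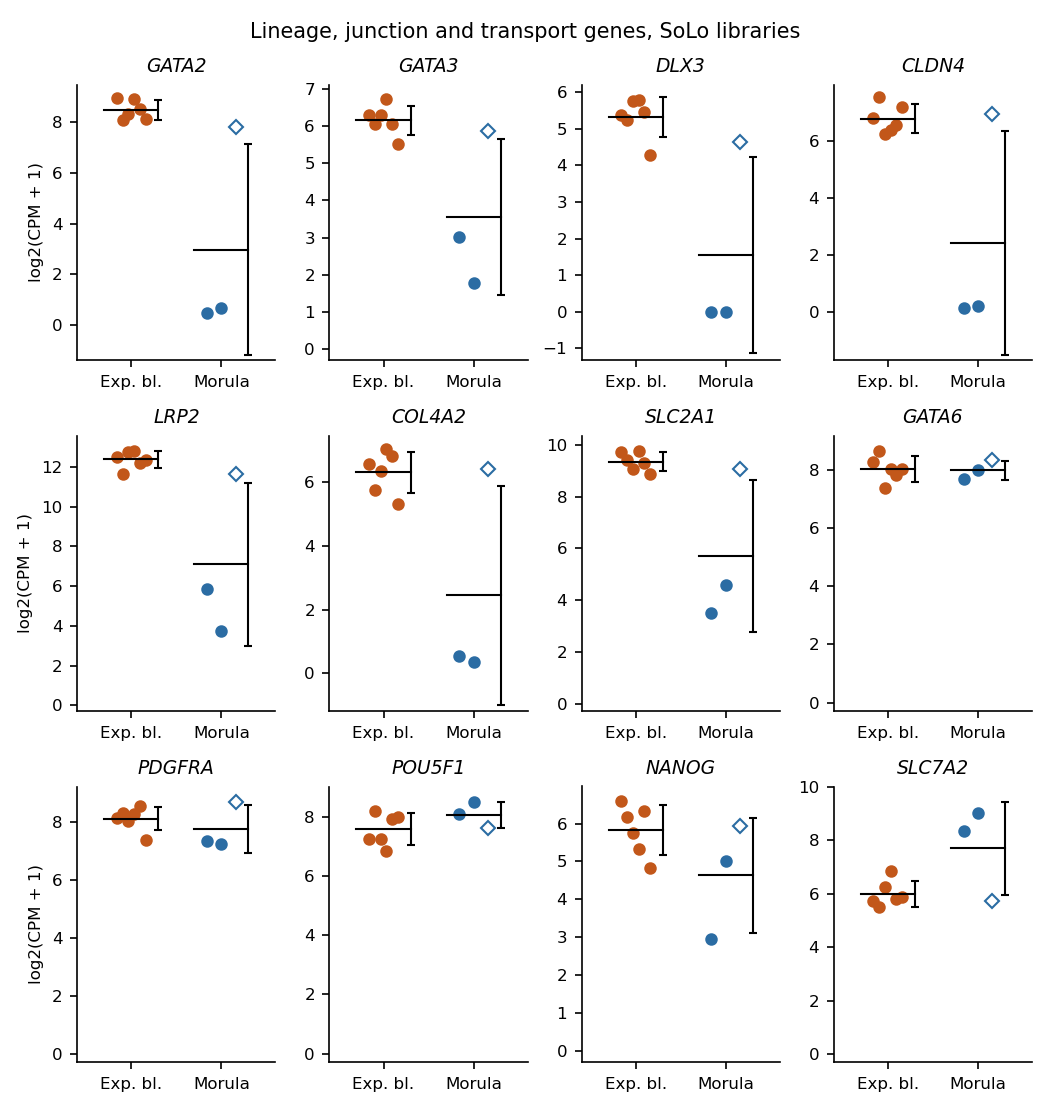
Level of 12 genes as log2(CPM + 1) in 6 expanded blastocysts (Exp. bl., left) and 3 morulas (right). Points are embryos, the open diamond is morula 022916_01, and lines and bars are the mean and SD. For GATA2, GATA3, DLX3, CLDN4, LRP2, COL4A2 and SLC2A1 the open diamond lies near the blastocysts and the other 2 morulas lie far below, while GATA6 and POU5F1 show no call in either fit.

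In SoLo, primitive endoderm genes were called in 1 direction. Without morula 022916_01, 10 of 25 were called higher and none lower, and with all libraries none of 24 was called by edgeR; the list medians were 3.43, or 3.04 with 4 genes at their bound, and 1.43. LRP2, also known as megalin, an endocytic receptor of absorptive epithelia, had 3214 to 7185 CPM in blastocysts, against 57.8, 12.4 and 3227 CPM in morulas, and was higher without 022916_01 (log2 fold change 7.31 ± 1.48, edgeR adjusted p = 0.0139). The 2 morulas thus had a small fraction of the level of any blastocyst. COL4A2, a collagen chain of basement membranes, had 39.0 to 130 CPM in blastocysts, against 0.47, 0.29 and 84.7 CPM in morulas (7.72 ± 0.85, adjusted p = 4.75e-05 without 022916_01). LAMC1, a laminin chain of the same membranes, had 799 to 1057 CPM in blastocysts, against 220, 204 and 822 CPM in morulas (2.20 ± 0.32, adjusted p = 0.000349). APOA1, an apolipoprotein, had 36.0 to 457 CPM in blastocysts, against 0.186, 0.289 and 79.8 CPM in morulas (9.87 ± 2.05, adjusted p = 0.0149). LRP2 and LAMC1 were also higher in other SPIA embryos (edgeR adjusted p = 0.0192 and 0.0152). In those embryos 4 of 14 members tested were higher, with NID2 and SERPINH1, and 1 was lower, FRZB.

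The factors that mark primitive endoderm precursors moved less. GATA6 had 163 to 402 CPM in blastocysts, against 202, 251 and 318 CPM in morulas, and was called in neither fit (log2 fold change 0.06 ± 0.30 with all libraries and 0.25 ± 0.35 without 022916_01). PDGFRA, a growth factor receptor of the same lineage, had 165 to 374 CPM in blastocysts, against 162, 151 and 418 CPM in morulas, and missed the threshold without 022916_01 (0.88 ± 0.28, edgeR adjusted p = 0.0581). GATA4 varied among the blastocysts themselves, at 0.129, 5.11, 5.73, 16.3, 31.8 and 45.5 CPM, against 0.0931, 0 and 29.3 CPM in morulas. It was called without 022916_01 (adjusted p = 0.0487), a call that held in 1 of the 8 fits leaving out a further library.

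Pluripotency factors were not called apart from DNMT3L and TFCP2L1. POU5F1 had 112 to 293 CPM in blastocysts, against 272, 358 and 194 CPM in morulas (log2 fold change -0.46 ± 0.40, edgeR adjusted p = 0.61), and the stages overlapped. NANOG had 27.5 to 94.9 CPM in blastocysts, against 6.70, 31.5 and 59.7 CPM in morulas (0.90 ± 1.07, adjusted p = 0.732). DNMT3L, a cofactor of the de novo DNA methyltransferases, was higher in blastocysts at 204 to 340 CPM, against 88.3, 97.9 and 169 CPM in morulas and 16.0 to 24.6 CPM at the 8-cell stage (1.28 ± 0.25, adjusted p = 0.0228), so its levels climbed over the 3 stages. TFCP2L1, a transcription factor of naive pluripotent cells, had 61.9 to 146 CPM in blastocysts, against 5.59, 11.3 and 81.5 CPM in morulas, and was higher without 022916_01 (3.64 ± 0.52, adjusted p = 0.000349). Of 12 members tested, 1 was higher and none lower with all libraries, and 2 higher and none lower without 022916_01.

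Lysosomal genes beyond PSAP mostly had positive fold changes. With all libraries 40 of 42 members had a positive log2 fold change, against 52.6% of all genes, with a median of 1.10. The edgeR test called 2 of them, PSAP included, higher and none lower, and without 022916_01 it called 16 higher and none lower (median 1.67). The list's summed level was 7374 to 11588 CPM in blastocysts, against 2701, 2376 and 6247 CPM in the morulas. ASAH1, the acid ceramidase that acts on ceramide with a saposin as its activator, had 303 to 447 CPM in blastocysts, against 28.9, 12.9 and 158 CPM in morulas, and CTSB, a cysteine protease, had 1225 to 2489 CPM, against 174, 143 and 1093 CPM. Both were called higher in the SoLo fit without 022916_01 (edgeR adjusted p = 0.000118 and 0.000923) and not in that of all SoLo libraries. The difference between the fits was not tested. SPIA libraries of the same embryos, with 022916_01 kept, also called both higher. In other SPIA embryos CTSB was higher (2.46 ± 0.57, adjusted p = 0.0179), while ASAH1 had a log2 fold change of -0.01 ± 0.68. Of 13 subunits of the lysosomal proton pump none was called with all libraries and 3 were higher without 022916_01, among them ATP6V1B2 (2.35 ± 0.27, adjusted p = 6.21e-05), with ATP6V1H and ATP6V0D1.

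Genes of the epithelial seal showed calls in 1 direction. Without 022916_01, 10 of 31 cell junction and polarity genes were higher and none lower (median 1.11), and with all libraries edgeR called none of 31 (median 0.75). The 10 were 32.3% of those tested, against 5.1% of all genes higher in that fit. CLDN4, a tight junction claudin, had 74.9 to 186 CPM in blastocysts, against 0.0931, 0.144 and 125 CPM in morulas. The first 2 morulas held 2 counts together, and the ratio of the blastocysts to them was 1025 with a 95% counting interval of 284 to 8467 (edgeR adjusted p = 3.85e-07). CLDN7 had 32.0 to 88.7 CPM in blastocysts, against 0.0931, 0.144 and 35.8 CPM in morulas. CDH1, the adhesion protein of compaction, had 992 to 1416 CPM in blastocysts, against 393, 173 and 965 CPM in morulas (2.16 ± 0.31, adjusted p = 0.000349 without 022916_01), and EZR, a linker of microvilli to actin, had 671 to 1110 CPM, against 375, 304 and 693 CPM (1.51 ± 0.27, adjusted p = 0.00197). In morulas 021016_02 and 021016_03 both claudins were near 0, while CDH1 and EZR were not. Other SPIA embryos called 1 of 27 members tested higher, DSC2, and none lower. CLDN4, CLDN7, CDH1 and EZR were thus not called there.

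Of the ion and water transport genes, ATP1B1, a subunit of the sodium pump, was higher without 022916_01, at 182 to 289 CPM in blastocysts and 31.3, 56.2 and 170 CPM in morulas (log2 fold change 2.47 ± 0.46, edgeR adjusted p = 0.00282). SCNN1G, a subunit of the epithelial sodium channel, and SLC4A4, a sodium bicarbonate cotransporter, were lower in the same fit (adjusted p = 0.0116 and 0.0118). SCNN1G had 0 to 1.43 CPM in blastocysts, against 11.2, 10.7 and 0 CPM in morulas. In that fit the list had 1 of 17 higher (5.88%) and 2 lower (11.8%), against 5.1% and 4.67% of all genes. The higher share was near that of all genes and is not a result about the list. With all libraries none of 16 was called. Of the Hippo pathway genes, LATS1, the kinase that keeps YAP out of the nucleus, had 22.1 to 52.1 CPM in blastocysts, against 101, 110 and 39.0 CPM in morulas (-1.43 ± 0.31, adjusted p = 0.00735 without 022916_01), and was lower in other SPIA embryos (adjusted p = 0.0433). VGLL1, a TEAD cofactor of trophoblast, was at least 36.7-fold higher without 022916_01 (adjusted p = 0.046), a call lost when any further library was left out. These were the list's only calls among 20 tested in that fit, and none was called with all libraries. At 5% higher and 5% lower the shares were near those of all genes, 5.1% and 4.67%, and are not a result about the list.

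Among fuel transporters, SLC16A1 was called lower and SLC2A1 higher, in different fits. SLC16A1, which carries lactate and pyruvate, was lower in blastocysts with all libraries, at 185 to 268 CPM, against 587, 623 and 342 CPM in morulas and 860 to 1261 CPM at the 8-cell stage (log2 fold change -1.19 ± 0.20, edgeR adjusted p = 0.0204). Its level declined over the 3 stages. SLC2A1, the glucose transporter GLUT1, had 463 to 876 CPM in blastocysts, against 10.4, 23.3 and 530 CPM in morulas and 23.8 to 49.2 CPM at the 8-cell stage, and was higher without 022916_01 (5.32 ± 0.45, adjusted p = 2.73e-06). SLC2A3, another glucose transporter, had 1052 to 1198 CPM in blastocysts, against 1848, 1898 and 1228 CPM in morulas, and was lower without 022916_01 (-0.72 ± 0.16, adjusted p = 0.0087) but not called with all libraries (-0.54 ± 0.17, adjusted p = 0.118). Other SPIA embryos called SLC16A1 lower (-1.58 ± 0.42, adjusted p = 0.0366) and SLC2A1 higher (4.51 ± 0.98, adjusted p = 0.0194). PGK1 and GPI, enzymes of glycolysis, were higher without 022916_01 (3.41 ± 0.61 and 1.55 ± 0.32, adjusted p = 0.00201 and 0.00545). Of 22 genes on the glycolysis list, 1 was lower with all libraries, and 5 were higher and 3 lower without 022916_01.

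The cholesterol pathway had 5 of 15 genes higher and none lower without 022916_01 (median 1.33), and none called by edgeR with all libraries (median 0.79). SREBF2, the transcription factor that switches the pathway on, had 176 to 414 CPM in blastocysts, against 32.2, 29.0 and 197 CPM in morulas (3.20 ± 0.40, edgeR adjusted p = 0.000114 without 022916_01), and was higher in other SPIA embryos (adjusted p = 0.0274). HMGCS1, an enzyme of the pathway, had 344 to 824 CPM in blastocysts, against 134, 61.5 and 575 CPM in morulas (2.42 ± 0.41, adjusted p = 0.00139 in that fit), so morula 022916_01 lay within the blastocyst range.

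Nucleolar genes, which make and process ribosomal RNA, mostly had negative fold changes. With all libraries 26 of 29 members had a negative log2 fold change, 4 were called lower and none higher, and the median was -0.56. Without 022916_01, 12 were lower and none higher (median -0.67). Their summed level was 3843 to 5012 CPM in blastocysts, against 9027, 8848 and 5261 CPM in morulas and 6297 to 7388 CPM at the 8-cell stage. NCL, the abundant nucleolar protein nucleolin, had 1371 to 1761 CPM in blastocysts, against 4436, 4369 and 2074 CPM in morulas (-1.25 ± 0.21, edgeR adjusted p = 0.0204), and was lower in other SPIA embryos (-1.32 ± 0.34, adjusted p = 0.0311). NOP2, a ribosomal RNA methyltransferase, had 71.1 to 103 CPM in blastocysts, against 217, 168 and 103 CPM in morulas (-0.95 ± 0.21, adjusted p = 0.0407). POLR1E and POLR1D, subunits of RNA polymerase I (POLR1D is shared with polymerase III), had log2 fold changes of -1.34 ± 0.28 and -1.22 ± 0.28 (adjusted p = 0.0278 and 0.0444). Under voom with the title code as a random effect NOP2, POLR1D and POLR1E lost the call (adjusted p = 0.0633, 0.0877 and 0.0584), as did NOP2 and POLR1D with the 2 stages fitted alone (adjusted p = 0.0511 and 0.0569). The 60 cytosolic ribosomal protein genes tested had a median of 0.03 with none called with all libraries, and 1, RPL7, lower without 022916_01. That is 1.67% of the list, below the 4.67% of all genes lower in that fit.

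**Figure D5:**
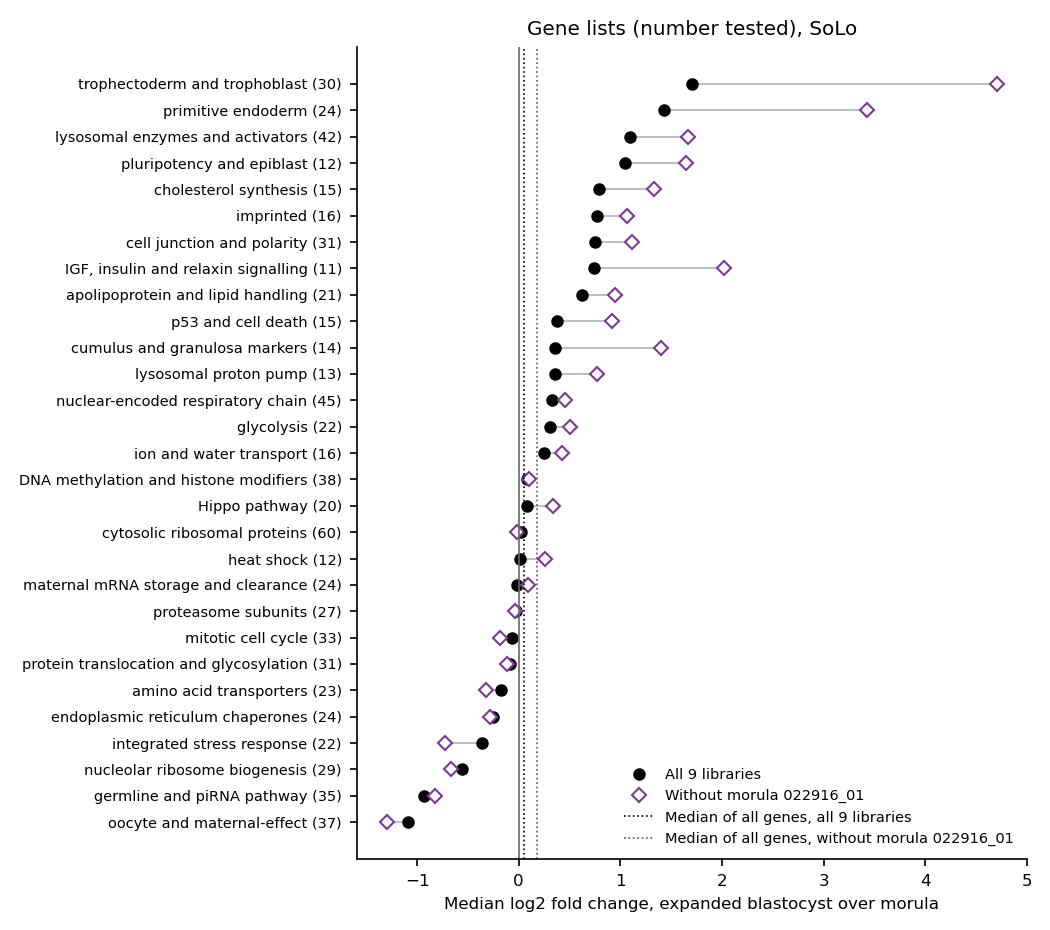
Median log2 fold change, expanded blastocyst over morula, of each gene list with 10 or more members tested, with all 9 libraries (filled circles) and without morula 022916_01 (open diamonds), with the number of members tested in the all-library fit in brackets. Dotted lines are the medians of all genes, 0.05 and 0.18; trophectoderm lies at 1.70 and 4.70, and nucleolar ribosome biogenesis at -0.56 and -0.67.

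Endoplasmic reticulum genes beyond HSPA5 showed a smaller set of calls, mostly lower. Of 24 chaperones, HSPA5 alone was called with all libraries, and without 022916_01 HSPA5, HYOU1 and UGGT1 were lower and P4HB was higher. These shares were 12.5% lower and 4.17% higher, against 4.67% and 5.1% of all genes in that fit. HYOU1, a chaperone that works with HSPA5, had 127 to 182 CPM in blastocysts, against 273, 343 and 215 CPM in morulas (-1.01 ± 0.22, edgeR adjusted p = 0.00762 without 022916_01). UGGT1, the sensor of misfolded glycoproteins, had 159 to 219 CPM, against 474, 270 and 190 CPM (adjusted p = 0.0143). P4HB, a disulfide isomerase, had 474 to 724 CPM, against 415, 303 and 471 CPM (0.75 ± 0.22, adjusted p = 0.0422). Of the 31 genes of translocation and glycosylation, SEC62, which helps proteins through the endoplasmic reticulum channel, was lower with all libraries, at 49.9 to 103 CPM in blastocysts and 244, 241 and 84.1 CPM in morulas (-1.45 ± 0.32, adjusted p = 0.0353). It was also lower in other SPIA embryos (-2.07 ± 0.46, adjusted p = 0.0135). Without 022916_01 there were 4 lower (12.9%), SEC63 and SRPRB among them, and 1 higher (3.23%), DDOST, of the glycan-transferring complex. The higher shares of both lists were below the 5.1% of all genes and are not results about the lists. None of 22 genes of the integrated stress response was called with all libraries, and EIF2AK4, its amino acid sensor, was higher without 022916_01 (1.35 ± 0.41, adjusted p = 0.046). That is 4.55% of the list, below the 5.1% of all genes higher in that fit, and is not a result about the list.

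Chromatin genes were called in both directions. KDM1A, a histone demethylase, was higher with all libraries, at 327 to 608 CPM in blastocysts and 172, 119 and 259 CPM in morulas (log2 fold change 1.30 ± 0.27, edgeR adjusted p = 0.0259), while its value in other SPIA embryos was 0.00 ± 0.39. SPIA libraries of the same embryos called KDM1A higher. KAT2B, a histone acetyltransferase, was lower at 6.66 to 20.7 CPM in blastocysts, against 91.5, 71.9 and 21.4 CPM in morulas (-2.44 ± 0.53, adjusted p = 0.0368), and was also lower in other SPIA embryos (-3.99 ± 0.75, adjusted p = 0.00525). DNMT3A, a de novo DNA methyltransferase and partner of DNMT3L, had 275 to 339 CPM in blastocysts, against 45.6, 24.8 and 290 CPM in morulas (3.06 ± 0.43, adjusted p = 0.000331 without 022916_01). The list of 38 had 2 higher and 1 lower with all libraries, and 7 higher and 3 lower without 022916_01.

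Of 37 oocyte genes tested with all libraries, 2 were lower in blastocysts and none higher, with a median log2 fold change of -1.09. BTG4, an adaptor that removes maternal mRNA, had 0.999 to 4.25 CPM in blastocysts, against 14.5, 28.3 and 7.35 CPM in morulas (log2 fold change -2.84 ± 0.65, edgeR adjusted p = 0.0418). NLRP13 had 2.40 to 8.49 CPM in blastocysts, against 9.78, 56.3 and 11.9 CPM in morulas and 109 to 203 CPM at the 8-cell stage (-2.40 ± 0.50, adjusted p = 0.0321). Without 022916_01 the list held 3 lower (8.11%) and 2 higher (5.41%), against 4.67% and 5.1% of all genes in that fit. The higher share was near that of all genes and is not a result about the list. The 2 higher were NLRP2 and KHDC3L, both known from the maternal complex under the oocyte membrane. NLRP2 had 3486 to 4773 CPM in blastocysts, against 1744, 1193 and 3529 CPM in morulas and 295 to 398 CPM at the 8-cell stage (1.45 ± 0.20, adjusted p = 0.000208 without 022916_01). Its level was thus highest in the latest stage. NLRP genes are close relatives, and reads shared among them cannot be told apart here. Germline and piRNA genes gave 2 of 35 lower with all libraries and 6 of 36 without 022916_01, HSF2BP and TEX14 among them, and none higher in either fit. With morula 021016_03 also left out, HSF2BP (log2 fold change -1.12, edgeR adjusted p = 0.511) and TEX14 (-0.41, adjusted p = 0.843) lost the call, and TEX14 also lost it under voom (adjusted p = 0.25) and with the 2 stages fitted alone (adjusted p = 0.0749).

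Genome activation genes stood at low levels in 5 of the 6 blastocysts. The 7 tested summed to 2.48 to 7.59 CPM in 5 blastocysts and 121 CPM in blastocyst 112415_03, against 31.2, 84.2 and 46.6 CPM in morulas and 1417 to 2275 CPM at the 8-cell stage. ZSCAN4 stood at 25.6 CPM in 112415_03 and at 0 to 2.00 CPM in the other 5 blastocysts, against 0.652, 18.8 and 8.01 CPM in morulas. LEUTX stood at 35.8 CPM in 112415_03 and 0 to 0.230 CPM in the others, against 0, 0 and 0.525 CPM in morulas. The SPIA library of the same blastocyst also held both, at 12.0 and 20.5 CPM. None of the 7 was called by edgeR in either fit, at log2 fold changes of -0.93 ± 1.46 for ZSCAN4 and 5.09 ± 2.66 for LEUTX with all libraries.

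Cell cycle genes included CCNE1, the cyclin that starts DNA replication, which was lower at 89.9 to 165 CPM in blastocysts, against 360, 347 and 150 CPM in morulas (log2 fold change -1.19 ± 0.25, edgeR adjusted p = 0.0316). It was the 1 call of 33 with all libraries, and without 022916_01 there were 3 lower, with CENPF and CCNA2, and 1 higher, AURKB. These shares were 9.09% lower and 3.03% higher, against 4.67% and 5.1% of all genes in that fit. The higher share was below that of all genes and is not a result about the list. Of imprinted genes, IGF2R, which carries enzymes to lysosomes and clears IGF2, had 550 to 684 CPM in blastocysts, against 123, 183 and 557 CPM in morulas (2.02 ± 0.25, adjusted p = 9.16e-05 without 022916_01), and ZDBF2 and GNAS were also higher in that fit, the 3 calls of 16. IGF2R and IGFBP3 were the 2 higher genes of 11 on the IGF, insulin and relaxin list, and none was lower. The higher shares were 18.8% of the imprinted list and 18.2% of this one, against 5.1% of all genes. IGFBP3 had at most 1.72 CPM in blastocysts and 1 count over morulas 021016_02 and 021016_03. Its call was lost with no filter, under voom with or without the title code, and with the 2 stages fitted alone. It was also lost without morula 021016_02 or without 021016_03. Of amino acid transporters, SLC7A8, SLC7A3 and SLC1A3 were higher and 2 were lower of 23 without 022916_01. These shares were 13% and 8.7%, against 5.1% and 4.67% of all genes. SLC7A3, a carrier of arginine, had 86.4 to 211 CPM in blastocysts, against 4.93, 7.08 and 99.4 CPM in morulas (4.64 ± 1.12, adjusted p = 0.0239).

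Smaller numbers were called in other lists, given here for the fit without 022916_01, in which 5.1% of all genes tested were higher and 4.67% lower. Of 45 respiratory chain genes NDUFV1 (2.69 ± 0.48, edgeR adjusted p = 0.00208) and COX5A were higher. Of 12 heat shock genes HSPH1 (2.14 ± 0.31, adjusted p = 0.000367) and HSP90AB1 were higher and the mitochondrial chaperone HSPA9 was lower (-0.84 ± 0.20, adjusted p = 0.0137). Reads of HSP90AB1 and of RPL7 may be shared with near-identical copies. Of 27 proteasome subunits PSMC5 was lower, a call lost when any further library was left out. Of 22 apolipoprotein and lipid handling genes APOA1 was higher. These shares, 4.44% higher for the respiratory chain, 3.7% lower for the proteasome and 4.55% higher for the apolipoproteins, were below those of all genes and are not results about the lists. Of 24 genes of maternal mRNA storage and clearance, ZFP36L1 was higher and BTG4 and CNOT7 were lower. Of these genes BTG4 was also called with all libraries. The higher share of this list, 4.17%, was below that of all genes, and the lower share was 8.33%. The p53 and cell death list had no call by edgeR in either fit among 15 and 16 tested.

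The genes of largest change without morula 022916_01 that reached 1 CPM in every blastocyst had no or almost no counts in the other 2 morulas. HSD17B1, which makes estradiol, had 25.1 to 86.9 CPM in blastocysts, against 0, 0 and 18.6 CPM in morulas, at least 312-fold higher than the first 2 (edgeR adjusted p = 0.00179). By the same floor of 3 counts over both morulas, SLC13A5, a citrate transporter, was at least 204-fold higher (adjusted p = 0.000644), RASGRP2, an exchange factor for Rap GTPases, at least 199.9-fold (adjusted p = 0.0113), ANXA4, an annexin, at least 167-fold (adjusted p = 7.32e-05), PNCK, a calmodulin-dependent kinase, at least 156-fold (adjusted p = 0.0152) and ASS1, of arginine synthesis, at least 143-fold (adjusted p = 0.00393). FLNC, an actin crosslinker, had 37.1 to 233 CPM in blastocysts, against 0.0931, 0 and 68.8 CPM in morulas, from 1 count in the first 2 (adjusted p = 0.000114). Morula 022916_01 had 7.35 to 68.8 CPM of these 7 genes, and none was called with all libraries. ANXA4 was also higher in other SPIA embryos (4.24 ± 1.19, adjusted p = 0.0456).

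At the other end of that fit, DHRS7, a retinal and steroid reductase, had 0 to 0.464 CPM in blastocysts, against 8.38, 29.5 and 0.263 CPM in morulas (-7.13 ± 1.12, edgeR adjusted p = 0.000684). EEF1A2, a tissue-restricted translation elongation factor, had 0 to 0.429 CPM in blastocysts, against 15.4, 11.7 and 2.23 CPM in morulas (-6.01 ± 1.52, adjusted p = 0.019). TMEM132D, GREM1, ADAMTS7, ALOX12B and BATF3 were lower from small counts, with at most 0.310 CPM in any blastocyst and 1.02 to 14.7 CPM in morulas 021016_02 and 021016_03 (adjusted p from 0.00803 to 0.0463). With all libraries DHRS7 and TMEM132D were lower as well (adjusted p = 0.0228 and 0.0446). For ALOX12B and BATF3 the call was lost whichever further library was left out. GREM1 also marks the cumulus cells that surround the oocyte.

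Genes called in SoLo mostly pointed the same way in embryos that had no SoLo library. Many of those embryos carried SoLo title codes, namely blastocysts of 111215, 111715 and 112415 and morulas of 021016 and 022916. No title code there held both stages, so stage and title code cannot be told apart in them either. The shared direction is thus not independent of that limit. Blastocyst 111715_05 had 600966 counts in its SPIA library, the fewest of these embryos. Of the 16 called higher with all libraries, 13 were tested in those SPIA embryos and all 13 had the same sign, against 53.6% of all genes positive in SoLo, with PSAP the 1 called in both, which is 7.69% of those tested and 0.885% of the 113 SPIA calls. Of the 146 lower, 134 of 135 tested had the same sign, against 79.3% of all genes negative in SoLo. There 37 were called in both, which is 27.4% of the SoLo calls tested and 17.0% of the 218 SPIA calls. Without 022916_01, 508 of 597 higher genes and 598 of 627 lower genes had the same sign, at 85.1% and 95.4%, against 53.9% and 80.2% of all genes in those directions. There 86 higher and 98 lower genes were called in both, or 76.1% and 45.0% of the SPIA calls. The median log2 fold change of all genes in those SPIA embryos was -0.34, against 0.05 in SoLo with all libraries. In SPIA libraries of the same 9 embryos edgeR called 173 of 10763 genes higher (1.61%) and 91 lower (0.845%), and 570 and 225 without morula 022916_01.

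Markers of other cells that the samples could hold were looked at as whole lists. Cumulus and granulosa markers summed to 101 to 182 CPM in blastocysts, against 73.7, 125 and 158 CPM in morulas, and none of 14 was called with all libraries. Without 022916_01, CYP11A1, a steroidogenic enzyme of trophoblast as well, was higher, and GREM1 was lower, of 16. These shares, 6.25% each way, were near the 5.1% and 4.67% of all genes in that fit. Sperm markers summed to 41.6 to 64.3 CPM in blastocysts, against 34.8, 31.8 and 49.1 CPM in morulas, and blood and immune markers to 3.72 to 20.6 CPM, against 19.7, 16.5 and 13.8 CPM. Neither of these lists had a call in either fit. Their part in the results above was not tested.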

How the data were processed

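The deposited table held whole-number read counts per gene for single embryos, 26309 identifiers of which 15078 carried a gene name. HISAT2 and DESeq2 are named in the submitters' processing notes. For versions, build, annotation and strand setting, nothing is given in the sources used here. Of 52 columns, 49 were matched to labelled samples and 3 matched none and were not used. The members and gene lists were chosen with earlier results of these data known.

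Counts were scaled by TMM, filtered with filterByExpr and tested with edgeR 4.0.16 (robust quasi-likelihood, R 4.3.3) over the 8-cell, morula and expanded blastocyst SoLo libraries together, with Benjamini-Hochberg adjustment over all genes tested and a threshold of 0.05. Standard errors are the fold change divided by the root of the F statistic. DESeq2 1.42.0 and limma 3.58.1 served as alternatives. The scripts were tested on simulated data. Sums, tables and exact permutation tests were made in Python 3.11.15 (scipy 1.17.1 among its packages). For detected genes each library was thinned to 5696436 counts. A gene with no count in the morulas is given a bound from a floor of 3 counts over the group, and 95% intervals of ratios cover counting error only.

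Named genes were PSAP, MAEL, TEX15 and HSPA5, the 8 of largest change each way in each of the 2 fits among called genes that reached 1 CPM in every library of the higher stage, up to 4 members of each list by adjusted p, and a fixed set of lineage genes. Other names were chosen after their values were seen. Some genes that this rule names are not reported here.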

Additional observations from a re-analysis of the deposited data

Results flagged for a closer look

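Of 118 groups of expanded blastocysts examined, 15 had a library farther from the others than Dixon's 95% limit. Chance gives about 1 in 20 only for independent groups with a normal spread, whereas these groups drew on the same 6 libraries. Blastocyst 112415_03 accounted for 9 of the 15. It was the high library for ZSCAN4 at 25.6 CPM, LEUTX at 35.8 CPM, KLF17 at 22.4 CPM, CCNA1 at 11.8 CPM, TPRX1 at 9.40 CPM, BCL2L10 at 49.0 CPM, MAEL at 6.31 CPM and BATF3 at 0.129 CPM, and the low one for CENPF at 432 CPM. The nearest other blastocyst stood at 2.00, 0.230, 5.82, 1.04, 1.15, 17.9, 2.91, 0 and 679 CPM of the same genes in that order.

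Blastocyst 111215_b stood out for COX5A at 380 CPM (nearest 295 CPM) and SCNN1G at 1.43 CPM (nearest 0.257 CPM). Blastocyst 111715_02 stood out for ASAH1 at 447 CPM (nearest 356 CPM) and ADAMTS7 at 0.224 CPM, and 111715_04 for DNMT3A at 339 CPM (nearest 294 CPM) and TMEM132D at 0.115 CPM, where the other blastocysts had no count of ADAMTS7 or TMEM132D. For ADAMTS7, TMEM132D and BATF3 any count at all passes the limit, because the other blastocysts had none.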

How the results depend on the processing

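With all 9 libraries the 16 genes called higher became 25 with no filter, 61 with the 2 stages fitted alone, 289 with DESeq2, 384 with voom and 211 with voom and title code as a random effect, and ranged from 1 to 771 with 1 library left out. The 146 called lower became 390 with DESeq2 and 80 with voom and title code, and ranged from 4 to 706. Without morula 022916_01 the 771 higher became 1722 with DESeq2 and 1847 with the 2 stages alone, and ranged from 199 to 730 with a further library left out. The 706 lower became 1194 with the 2 stages alone, and ranged from 209 to 868. For SPIA libraries of the same embryos, leave-one-out fits chosen after seeing the data gave 21 to 570 higher and 12 to 225 lower. Fits that left 1 morula assumed it to vary like the other groups.

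Some log2 fold changes of genes not called in the fit concerned turned sign. GATA6 gave -0.027 with library totals, and -0.10 (without blastocyst 111215_b) to 0.25 (without morula 022916_01) with a library left out, and -0.089 without morula 021016_02. With a library left out, PDGFRA ranged from -0.020 to 0.88, ZSCAN4 from -4.20 to 0.16, LEUTX from -0.49 to 8.63 (a fitted value with no LEUTX count in either remaining morula) and IGFBP3 from -0.033 to 4.34. The low ends were without morula 021016_03 for PDGFRA and IGFBP3 and without blastocyst 112415_03 for ZSCAN4 and LEUTX. IGFBP3 was -0.011 without morula 021016_02. With 022916_01 left out throughout, ZSCAN4 ranged from -4.31 to 2.86 and CCNA1 from -4.46 to 0.24. The causes of these shifts were not tested. No paired analysis was possible because the stages share no title code or replicate number.

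Of 105 named genes called without 022916_01, 51 kept the call whichever further library was left out. The call held in 2 of the 8 such fits for AURKB and P4HB, in 3 for CCNA2 and in 1 for COX5A and EIF2AK4. The 3 morulas, 1 of them apart, and totals of 5696436 to 10571608 counts per library limit the precision. Counts near 0 in the morulas bound rather than measure a fold.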

Other observations

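In blastocyst 112415_03 the SPIA library of the same embryo held 12.0 CPM of ZSCAN4, 20.5 CPM of LEUTX, 2.24 CPM of TPRX1, 8.48 CPM of BCL2L10 and 8.16 CPM of MAEL, but 0.80 CPM of KLF17 and 0.480 CPM of CCNA1. ZSCAN4 and LEUTX were thus the highest of the 6 blastocysts in both kits, while KLF17 and CCNA1 were high in its SoLo library alone. Its mean level over the 218 genes lower in blastocysts of other embryos was also the highest of the 6, at 5.60 in SoLo and 4.81 in SPIA.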
